A study of Arabidopsis thaliana with 4 samples.

Results

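PePr peaks that overlapped a peak of the replicate 1 list and none of the replicate 2 list are described here. They were picked by position alone, with an overlap of 1 bp or more counted, and there were 888 of them among 24219 PePr peaks (3.67%, exact 95% interval 3.43 to 3.91). The other PePr peaks were 4980 that overlapped both replicate lists, 4441 that overlapped replicate 2 only and 13910 that overlapped neither. The peaks came from chromatin immunoprecipitation and sequencing of the DNA-binding protein TRB1 in Arabidopsis thaliana seedlings aged 14 days, with 4 libraries and 1 library per group. One group was TRB1pro:TRB1-GFP plants, homozygous for TRB1 fused to green fluorescent protein under the TRB1 promoter, on a GFP-Trap A matrix, and its control was wild-type (Wt) plants on the same matrix. The other group was Wt plants with the antibody anti-TRB1 (5.2), and its control was Wt plants without an antibody. The series counts these 2 approaches as its biological replicates. The labels do not say which of them is replicate 1, so a peak of replicate 1 alone cannot be assigned to the fusion protein or to the antibody.

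TRB1 belongs to a small plant family with a Myb-like domain at one end and a histone-like domain in the middle. It binds telomeric repeats, and also short stretches of the same repeat, called telo-boxes, that lie near the starts of many genes. Members of the family are known to bring Polycomb repressive complex 2, which methylates histone H3, to some of their targets. PePr is a peak caller that uses replicate libraries together, while MACS calls peaks in one library against a control. A PePr peak that meets only the replicate 1 list is thus listed by PePr and in replicate 1, and is missing from replicate 2.

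Read depth and the signal in the control libraries are not part of the peak lists used here. The part of depth and of the callers' thresholds in what each list holds was not tested. The replicate 1 list held 3975 peaks and the replicate 2 list 7480, and 90.1% of replicate 1 peaks overlapped a replicate 2 peak. All intervals in parentheses below are exact 95% intervals over counts of peaks or genes, and with 1 library per group they cover counting error only. No difference between classes of peaks was tested.

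The 888 peaks were of 2 kinds. At 486 of them (54.7%, 51.4 to 58.0) the replicate 1 peak lay apart from every replicate 2 peak; such replicate 1 peaks are called separate. The other 402 (45.3%, 42.0 to 48.6) lay on a replicate 1 peak that overlapped a replicate 2 peak at some other point; such replicate 1 peaks are called shared. The 486 were spread over 367 separate peaks and the 402 over 334 shared peaks, so that 551 replicate 1 peaks held 1 of the 888, 120 held 2, 25 held 3, 3 held 4 and 2 held 5. The separate peaks numbered 392 in all, and 93.6% of them held at least 1 such PePr peak; of the 3583 shared peaks 9.32% did. None of the 888 overlapped the authors' genomic list of 4995 intervals, each of which overlapped PePr, replicate 1 and replicate 2. Of the PePr peaks of both lists 4976 of 4980 overlapped it, and of those of replicate 2 only and of neither 0 did, so the 0 goes with the choice of peaks.

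The peaks on shared replicate 1 peaks lay close to replicate 2. Their distance to the nearest replicate 2 peak had a median of 377 bp, with quartiles of 163 and 670 bp, and 252 of the 402 (62.7%) had one within 500 bp. On separate replicate 1 peaks the median distance was 4487 bp, with quartiles of 2419 and 9612 bp. Only 5 of those 486 had a replicate 2 peak within 500 bp, and 225 (46.3%) had none within 5000 bp. The definition of the kinds favours this order, and the values are given as a description.

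**Figure D1:**
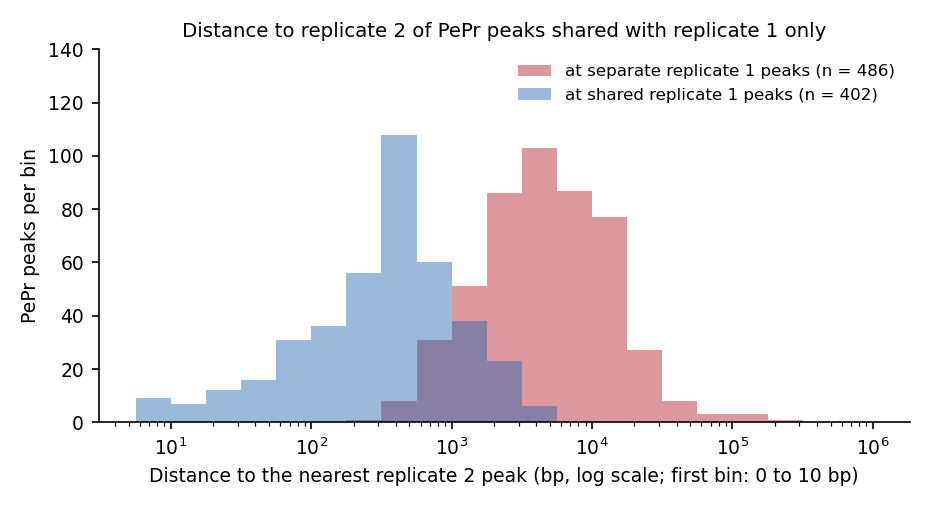
Number of PePr peaks (vertical axis) by distance in bp to the nearest replicate 2 peak (horizontal axis, log scale), for the 486 peaks on separate replicate 1 peaks and the 402 on shared ones. The separate kind is centred near 4487 bp and the shared kind near 377 bp.

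The shared kind lay to the side of its replicate 1 peak, which the choice favours too, since these peaks had to avoid the bases that replicate 2 covers there. The distance of the PePr centre from the middle of the replicate 1 peak, as a percentage of the way to that peak's edge, had a median of 68.8% on shared peaks, 20.9% on separate peaks and 22.5% for the PePr peaks of both lists. In 77.9% of the 402 the centre lay more than 50% of the way to an edge, against 21.6% of the 486 and 23.8% of the peaks of both lists. The centre was outside the replicate 1 peak altogether in 80 of the 402 and in 18 of the 486. Of the 334 shared replicate 1 peaks with such a PePr peak, 325 (97.3%) also held a PePr peak of both lists. Those 334 were wide, with a median of 3573 bp, against 2133 bp for all shared peaks, and replicate 2 covered 59.4% of their bases, against 86.8%. Both follow in part from the choice, which needs bases free of replicate 2, and nothing is read from them.

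**Figure D2:**
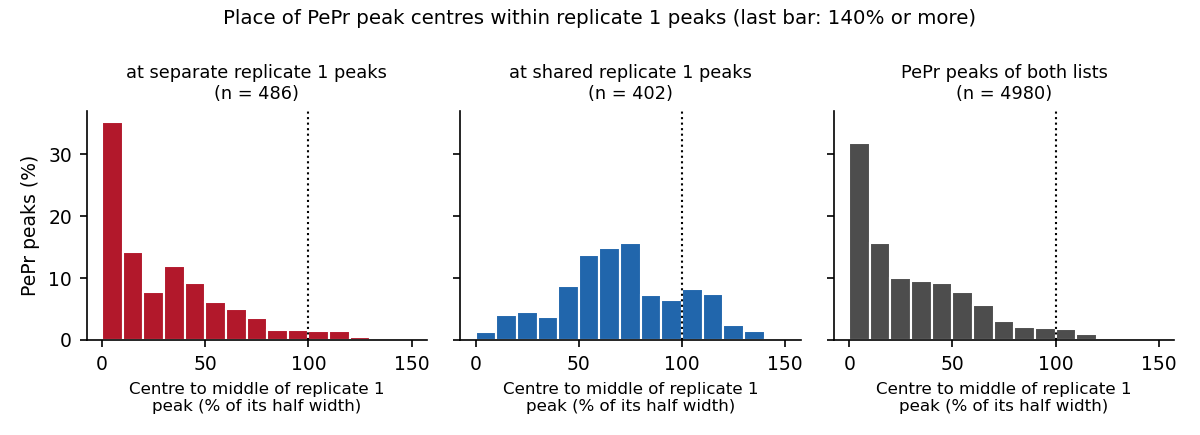
Share of PePr peaks (vertical axis, %) by distance of their centre from the middle of the replicate 1 peak they overlap (horizontal axis, % of the way to its edge, which the dotted line marks). Peaks on separate replicate 1 peaks and those of both lists gather at the middle (medians 20.9% and 22.5%), and those on shared peaks gather toward the edge (median 68.8%).

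Scores and p-values differed between the kinds. These are the authors' own values, deposited per peak. They come from the same calls as the lists whose positions chose the peaks, so they are described without a test. In the authors' replicate 1 list the score, on a scale that is not given, had a median of 1182 at the 367 separate peaks and 1823 at the 334 shared peaks, against 1772 over all 3975 replicate 1 peaks. A score of exactly 3100 was listed for 22 of the 367 and 87 of the 334. The strongest overlapping replicate 2 peak had a median score of 793 for the 334, against 1495 for the 3249 shared replicate 1 peaks without such a PePr peak. The authors' PePr p-value ran the other way, with a median of 7.97e-10 on separate peaks and 4.87e-08 on shared peaks. Over all 888 it was 7.55e-09, against 1.24e-13 for the PePr peaks of both lists, 3.58e-10 for those of replicate 2 only and 5.68e-08 for those of neither.

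**Figure D3:**
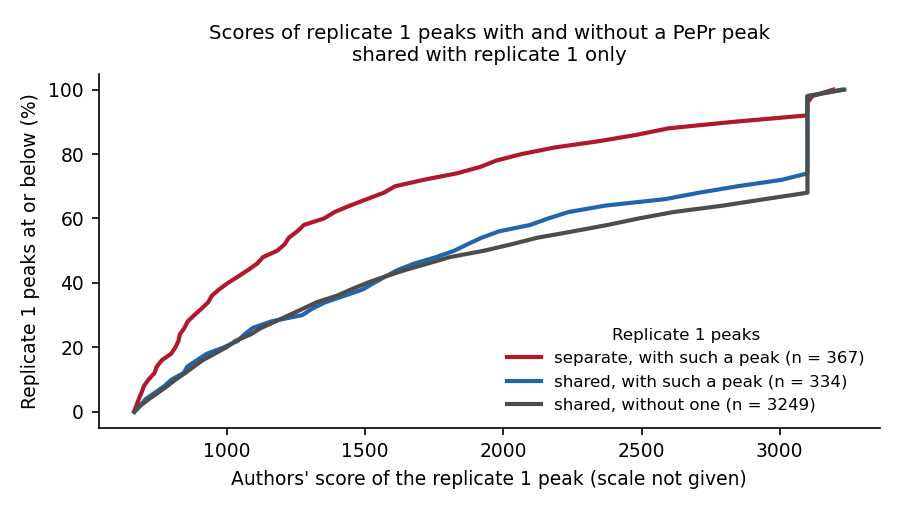
Cumulative share of replicate 1 peaks (vertical axis, %) by the authors' score (horizontal axis, scale not given), for the 367 separate peaks and 334 shared peaks that hold a PePr peak shared with replicate 1 only, and the 3249 shared peaks without one. The separate peaks have lower scores (median 1182, against 1823 at the 334), and each line jumps at 3100, the score that many peaks share.

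The 888 PePr peaks were narrower than those of both lists. Their width ran from 340 to 2890 bp with a median of 510 bp, against a median of 850 bp for both lists, 680 bp for replicate 2 only and 510 bp for neither. All PePr widths were whole multiples of 170 bp, so these medians differ by only 1 or 2 such steps. The narrowest width, 340 bp, was that of 244 of the 888 (27.5%); it made up 17.9% of the separate kind and 39.1% of the shared kind.

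Genes are named below where an end of a protein-coding gene lay within 500 bp of the peak. The 10 peaks with the smallest PePr p-values in the authors' list were led by one between FRO6 and FRO7, neighbouring genes of ferric reductases, enzymes of iron handling (chromosome 5, 20204331 to 20205010). It had a p-value of 1.2e-32 and a replicate 1 score of 2125, and the nearest replicate 2 peak was 4092 bp away. The peak at ACA4, a calcium pump of the vacuole membrane (chromosome 2, 17336941 to 17337790), had a p-value of 6.7e-29 and a score of 1449, with replicate 2 at 5044 bp. A peak of 1530 bp near MDAR1, which regenerates the antioxidant ascorbate (chromosome 3, 19599981 to 19601510), had a p-value of 2.0e-26 and a score of 902 in the authors' lists. Its nearest replicate 2 peak was 32322 bp away, the farthest among these 10.

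Others of the separate kind among the 10 lay near genes of enzymes and of a ubiquitin ligase subunit. The peak near AAE11, an acyl-activating enzyme gene (chromosome 1, 24611241 to 24612430), had a p-value of 7.7e-31 and a replicate 2 peak 377 bp away. The peak at PER64, a peroxidase, and AT5G42190, which the gene table also names SKP1-like ASK2, a subunit of ubiquitin ligases (chromosome 5, 16853971 to 16854990), had a p-value of 3.5e-27. The 5 places described so far had small PePr p-values with replicate 1 scores between 902 and 2144, none of them at the shared value of 3100.

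Of the 10, 4 were of the shared kind. They lay between GTF2H2, a subunit of the transcription and repair factor TFIIH, and AT1G05060 (chromosome 1, 1450441 to 1451460, PePr p-value 3.0e-26), and between AT2G40316 and TBL33, of a family that acetylates cell wall xylan (chromosome 2, 16839521 to 16840200, 4.0e-23). One lay inside AT5G42440 (chromosome 5, 16973651 to 16974330, 6.5e-23) and one beside AT5G67280, listed as RLK, a receptor-like kinase (chromosome 5, 26845041 to 26845720, 1.5e-22). Their distances to replicate 2 were 383, 122, 841 and 277 bp in that order. Replicate 2 thus had a peak within 841 bp of each of these 4.

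The widest peak, of 2890 bp, lay near CWLP, a cell wall linker protein gene, on a separate replicate 1 peak of low score (chromosome 3, 7795861 to 7798750, score 739), and replicate 2 was 7143 bp away. The next, of 2040 bp, was at AT3G13820 and ended 9 bp from a replicate 2 peak (chromosome 3, 4548521 to 4550560). Of 5 peaks of 1870 bp, the 3 with the smallest p-values were one with no gene end nearby (chromosome 5, 5418581 to 5420450), one in AT2G27660 (chromosome 2, 11798511 to 11800380), and one by CRL, a gene of plastid division, and AT5G51030 (chromosome 5, 20746631 to 20748500). The replicate 1 scores of these 5 peaks were between 670 and 891 in the authors' list, all below the lower quartile of 906 over the 701 replicate 1 peaks concerned. The remaining peaks of 1870 bp had scores of 679 at AT1G28140 and 2559 at XTH25 and TCH4, so low scores did not go with this width throughout.

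The peaks of highest replicate 1 score were not those of smallest p-value. Among the 701 replicate 1 peaks that held any of the 888, the highest score in the authors' list was 3223, at a peak of 510 bp with no gene within 500 bp and with a PePr p-value of 4.1e-07 (chromosome 4, 17411741 to 17412250). Next came 3222 at the end of MTPB1, a metal transporter gene (chromosome 2, 12616211 to 12616550); this PePr peak overlapped the replicate 1 peak by 34 of its 340 bp. A score of 3193 followed at a peak 1015 bp from the nearest gene end (chromosome 3, 2346001 to 2346340), and 3173 at a pair of PePr peaks with centres inside AT2G05810 (chromosome 2, 2214421 to 2215270 and 2215611 to 2216120). The p-values of these 5 lay between 7.7e-09 and 4.5e-06.

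Several of the 888 could lie on one replicate 1 peak. A separate replicate 1 peak of 5275 bp (chromosome 1, 2562733 to 2568007, score 943) held 5 of them across AT1G08170, AT1G08180 and VPS41, a gene of protein transport to the vacuole, with PePr p-values between 2.9e-08 and 6.3e-06. A shared one of 8038 bp (chromosome 2, 12428216 to 12436253, score 2364) held 5 around AT2G28940 and EXPA6, an expansin that loosens cell walls, with 1 PePr peak of both lists among them and 2850 bp covered by replicate 2. Of the 3 that held 4, one of 3686 bp, also separate (chromosome 1, 6265373 to 6269058, score 1199), had them at RABA6b, a small GTPase of vesicle traffic, and AT1G18210. Peaks on one replicate 1 peak share their source and are not independent places.

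At the limits of the choice, the peak nearest to replicate 2 was at ATL4, a RING finger gene (chromosome 3, 22255211 to 22256740), which touched a replicate 2 peak without sharing a base and overlapped replicate 1 by 56 bp. One at BIM1, a factor of brassinosteroid signalling (chromosome 5, 2605251 to 2605760), was 2 bp away. Just outside, a PePr peak near AT3G20760 and EIN3, a factor of ethylene signalling (chromosome 3, 7259681 to 7260190), overlapped replicate 2 by 5 bp and another overlapped it by 3 bp (chromosome 1, 29219261 to 29219600), and both were left out. The smallest overlap with replicate 1 among the 888 was 1 bp (chromosome 5, 19825911 to 19827100), followed by 3 bp (chromosome 1, 26194451 to 26194790). Just outside that limit, PePr peaks at AT2G18420 (chromosome 2, 7994251 to 7994760) and ZFP8 (chromosome 2, 17507111 to 17507620) were among those that met neither list. With the replicate lists read as counted from 1 in place of 0, the peak at ATL4 would drop out and those at AT2G18420 and ZFP8 would be taken in, for 889 in all.

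Many of the 888 lay outside genes and away from their ends. Protein-coding genes came from a RefSeq table that gives no strand, so a gene's start could not be distinguished from its end. Centres outside genes and more than 500 bp from any gene end made up 32.0% (28.9 to 35.2) of the 888, against 13.8% of both lists, 10.3% of replicate 2 only and 2782 of the 13910 of neither. Centres in a gene but no farther than 500 bp from one of its ends made up 26.0% (23.2 to 29.0), against 42.8%, 48.8% and 37.1%. Centres outside genes but near an end by the same limit made up 26.7% (23.8 to 29.7), against 24.6%, 23.5% and 23.9%, and centres inside genes but farther from the ends 15.3% (lower limit 13.01, upper 17.9), against 18.8%, 17.4% and 19.0%. A protein-coding gene was overlapped by 62.8% of the 888, against 84.7%, 86.5% and 73.3%.

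**Figure D4:**
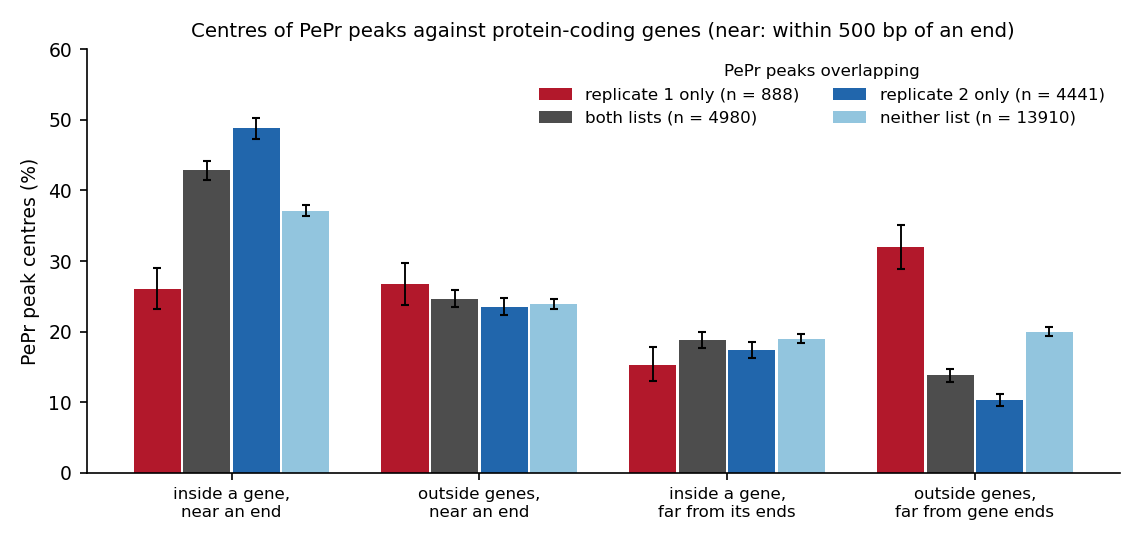
Share of PePr peak centres (vertical axis, %; error bars are exact 95% intervals) in 4 positions against protein-coding genes, for the 888 peaks of replicate 1 only, both lists, replicate 2 only and neither. The 888 stand at 32.0% outside genes and far from gene ends, above each of the other classes (10.3% in replicate 2 only, 13.8% in both lists), and at 26.0% inside genes near an end, against 37.1% to 48.8%.

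Both kinds had this position. The shared kind had to avoid the bases that replicate 2 covers, and the part of this in its position was not tested. Centres far from genes made up 34.6% (30.3 to 39.0) of the separate kind and 28.9% (24.5 to 33.5) of the shared kind. The share of centres within 500 bp of a gene end was 55.1% (50.6 to 59.6) in the separate kind and 49.8% (44.8 to 54.8) in the shared kind, and 52.7% (49.4 to 56.0) together, against 67.4% for both lists, 72.3% for replicate 2 only and 61.0% for neither. Peak width, by which peaks were split after the data were seen, moved with this share. Among peaks of 340 bp it was 40.6% (34.4 to 47.0) of 244 in replicate 1 only, against 51.8%, 62.3% and 54.1%. Among peaks of 510 or 680 bp it was 54.0% (49.4 to 58.6), against 65.3%, 72.3% and 64.4%. Among wider peaks it was 66.3% (58.7 to 73.3) of 172, against 71.3% for both lists, 77.1% for replicate 2 only and 71.8% for neither.

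The surroundings held about as many genes as those of the other PePr peaks. The number of protein-coding genes within 100 kb on either side of the centre had a median of 54 for the 888, against 56 for both lists, 55 for replicate 2 only and 54 for neither. Places with under 20 such genes, as around centromeres, held 9 of the 888 (1.01%, 0.464 to 1.92), all 9 of the separate kind, against 0.924%, 1.19% and 1.57%. The 2 peaks farthest from replicate 2 were both on chromosome 2, at 315863 bp (5542341 to 5543020) and 131685 bp (2761991 to 2762500). Per chromosome the 888 made up between 3.17% of PePr peaks on chromosome 3 and 4.01% on chromosome 1.

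Within 500 bp of an end, 693 of 27444 protein-coding genes (2.53%) had 1 of the 888, against 19.9% with a PePr peak of both lists, 17.7% with one of replicate 2 only and 68.7% with any PePr peak. Of the 888 peaks, 576 (64.9%) had such a gene, of which 168 had 2 genes and 9 had 3 or more. A PePr peak of both lists was also present at 41 of the 396 genes reached by the separate kind (10.4%) and at 156 of the 301 reached by the shared kind (51.8%). The share of 2.53% is over all protein-coding genes and is the background given below. Gene lists were made from symbols, synonyms or descriptions. Of the 10374 protein-coding genes with a symbol 312 had 1 of the 888, a slightly higher share.

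The lists of translation machinery genes, the class named by the title of the series, had none, but they missed genes that did. They hold only genes found by symbol, synonym or description and are incomplete. Of cytosolic ribosomal protein genes named by locus tag, AT1G01100, AT1G09590, AT3G09500, AT3G23390 and AT4G00810 had peaks of the 888 near an end. So did AT1G28350, a tyrosyl-tRNA synthetase gene. The 0 is thus one for the listed genes and not for the whole machinery. None of 35 listed cytosolic ribosomal protein genes (upper limit 10.0%) or 26 translation initiation factors (13.2%) had 1 of the 888 near an end. The same held for the listed 5 elongation and release factors, 12 aminoacyl-tRNA synthetases, and 15 genes of ribosome biogenesis and the nucleolus. The intervals of these short lists all include the background of 2.53%, and they cover the listed genes only. A PePr peak of both lists lay at 25 of the same 35 ribosomal protein genes (71.4%) and 14 of the 26 initiation factors (53.8%). The lists of histones (25 genes), NLR disease resistance proteins (12) and TRB and telomere genes (21) also had none of the 888.

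Other lists had between 0 and 4 genes. Of 45 photosystem and light-harvesting genes 4 had 1 of the 888 (8.89%, 2.47 to 21.2), an interval whose lower end is just below the background of 2.53%. They were PSB27, which helps assemble photosystem II (chromosome 1, 897941 to 898450), PSAE-2, a photosystem I subunit (chromosome 2, 8737321 to 8737830), PSBR, a photosystem II subunit (chromosome 1, 29736741 to 29737080), and PSI-P, a thylakoid membrane protein (chromosome 2, 19244851 to 19245360). The first 3 were of the shared kind, 702, 58 and 34 bp from replicate 2, and PSI-P was of the separate kind. In the authors' list their PePr p-values lay between 5.3e-11 at PSB27 and 6.2e-06 at PSBR.

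WRKY transcription factors, many of which act in defence and senescence, had 4 of 68 genes (5.88%, 1.63 to 14.4). The peak near WRKY33 (chromosome 2, 16106821 to 16108010) was 1190 bp wide, had a replicate 1 score of 2374 and lay 10028 bp from replicate 2. The others were at WRKY53 (chromosome 4, 12393851 to 12394530, score 956), WRKY11 (chromosome 4, 15292351 to 15292690, score 1090) and WRKY22 (chromosome 4, 523771 to 524280, score 1044), of which only WRKY22 was of the shared kind. None of these 4 genes had a PePr peak of both lists near an end; over all 68 WRKY genes 8 had one (11.8%). Among 95 MADS-box genes, which include floral organ and flowering-time factors, none had 1 of the 888 (upper limit 3.81%), while 24 (25.3%) had a PePr peak of both lists.

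**Figure D5:**
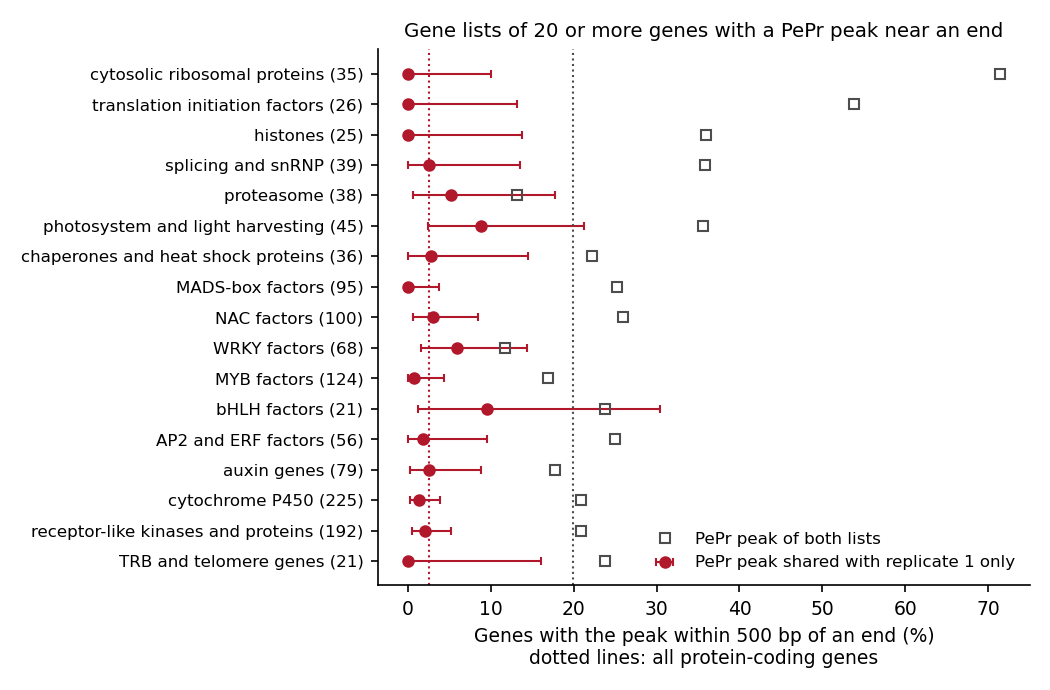
Share of genes (horizontal axis, %) with a PePr peak within 500 bp of an end, for gene lists of 20 or more genes (size in parentheses). Filled points are peaks shared with replicate 1 only, with exact 95% intervals, and open squares are peaks of both lists; dotted lines mark all protein-coding genes (2.53% and 19.9%). The filled points run from 0 to 9.52%, and the squares reach 71.4% at ribosomal protein genes. The lists hold genes found by symbol, synonym or description, not whole families.

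NAC transcription factors had 3 of 100 genes (0.623 to 8.52%): NAC019 (chromosome 1, 19698071 to 19698580), NAC014 (chromosome 1, 11978541 to 11978880) and NAC004 (chromosome 1, 434521 to 435030). Their replicate 1 scores in the authors' list were low, at 816, 824 and 866. The bHLH list, of 21 genes, does not hold the whole family. Of these 21, 2 had one, AT1G10120 (chromosome 1, 3306671 to 3307350) and bHLH121, a regulator of iron responses (chromosome 3, 6903871 to 6904550). The second was on a replicate 1 peak with a score of 3100. The next counts are also of the listed genes and not of whole families. MYB factors had 1 of 124 (MYBR1, also known as MYB44, chromosome 5, 26852861 to 26853710). AP2 and ERF factors had 1 of 56 (DEAR3, chromosome 2, 9936841 to 9937350). Auxin genes had 2 of 79, IAA16 (chromosome 3, 1287411 to 1287920) and ATAUX2-11 (chromosome 5, 17552161 to 17552500), which encode repressors of the auxin response. Both were of the shared kind, 67 and 102 bp from replicate 2.

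Cytochrome P450 genes had 3 of 225 (1.33%): CYP71B23 (chromosome 3, 9592591 to 9593610), CYP81G1 (chromosome 5, 26857111 to 26857620) and CYP707A4, an enzyme that breaks down abscisic acid (chromosome 3, 6673181 to 6673690). Receptor-like kinases and proteins had 4 of 192 (2.08%). Besides the peak of AT5G67280 above they were CRK42 (chromosome 5, 16150511 to 16151360), AT5G60280 (chromosome 5, 24261891 to 24262740) and CRK10 (chromosome 4, 12137831 to 12138340). Proteasome genes had 2 of 38, PBC2, a subunit of the core (chromosome 1, 29098391 to 29099070), and RPN1A, a subunit of the regulatory particle (chromosome 2, 8858701 to 8859550). Chaperones had 1 of 36, HSP18.2 (chromosome 5, 24061971 to 24062650). Listed splicing proteins had 1 of 39, U1-70K of the U1 particle (chromosome 3, 18825631 to 18826140). The intervals of these shares all included 2.53%. The splicing list did not hold U1A, so its count is not one for all splicing genes. U1A also had a peak shared with replicate 1 only near an end (chromosome 2, 19518891 to 19519400). Its PePr p-value in the authors' list was 2.0e-21, and it was of the shared kind. The peaks at U1-70K and AT5G60280 each overlapped a transfer RNA gene too.

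Genes of transfer RNAs, which carry amino acids to the ribosome, were overlapped by 22 of the 888 (2.48%, 1.56 to 3.73), against 1.87% of both lists, 0.631% of replicate 2 only and 0.956% of neither. The separate kind held 17 of the 22 (3.50% of 486, 2.05 to 5.54) and the shared kind 5 (1.24% of 402, 0.405 to 2.88). Over all 625 tRNA genes 22 were overlapped (3.52%). By amino acid the largest count was for tyrosine, at 7 of 75 genes (9.33%), all on separate replicate 1 peaks; the shares for histidine, at 1 of 10, and methionine, at 2 of 24 (8.33%), were of similar size. PePr peaks of both lists overlapped 6 of those 75 genes, those of replicate 2 only overlapped 0 and those of neither 1. Examples were AT5G03445 (chromosome 5, 857991 to 858840, PePr p-value 8.8e-18) and AT4G39195 (chromosome 4, 18254771 to 18255450, score 3154). The amino acid with most genes was named after the counts were seen.

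Other small RNA genes were rare among the 888. There was 1 with a small nucleolar RNA gene, SNOR105 (chromosome 1, 10151211 to 10152230), and 1 with a microRNA gene, MIR863 (chromosome 4, 7846521 to 7847030), and none with a spliceosomal snRNA gene (upper limit 0.415%). Small nucleolar RNA genes were overlapped by 0.113% (0.00285 to 0.626) of the 888, against 1.53% of both lists, 0.270% of replicate 2 only and 0.0719% of neither. Long non-coding RNA genes were overlapped by 5.29% (3.91 to 6.98), against 6.16%, 5.09% and 4.31%, and pseudogenes by 0.788% (0.317 to 1.62), against 2.13%, 2.52% and 1.65%.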

How the data were processed

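The data were 4 peak lists without headers that the authors deposited. Per the submitters' processing notes, MACS, bedtools, SAMtools and Bowtie2 (2.2.2) were used with the builds TAIR9 and TAIR10, with no roles stated. The sources used here do not give thresholds, controls, pooling or read depth. The deposited PePr list holds a p-value per peak, and the deposited replicate lists a score on a scale that is not given; 3 further PePr value columns (2 of unknown meaning and an adjusted p-value) were not used. Starts were read as counted from 0 in all lists and are printed counted from 1.

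Overlaps were computed in Python 3.11.15 (numpy 2.4.6, pandas 2.3.3), with the functions tested on simulated intervals against bedtools 2.31.1. Shares have Clopper-Pearson intervals (scipy 1.17.1). Genes came from RefSeq TAIR10.1, used for names and for placing peaks; of 27444 protein-coding genes only 10374 carry a symbol, which leaves the lists incomplete. No sequence was used here, so the planned motif shares were not computed. Peaks and 21 gene lists were chosen with earlier results of these data known. FIB, FIB4, PAA1 and PAA2, which are plastid fibrillins and copper pumps, were taken out of 2 lists after values were seen. The named peaks were those with the smallest p-values, the widest, those of highest score, those on the busiest replicate 1 peaks, those at the limits of the choice, and up to 4 genes per list. One of the 10 peaks with the smallest p-values is not reported here.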

Additional observations from a re-analysis of the deposited data

How the results depend on the processing

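Requiring a PePr p-value of 1e-07 or less left 560 peaks, of which 61.1% were on separate replicate 1 peaks and 57.1% had a centre within 500 bp of a gene end, and 1.84% of genes had one. Requiring 50% of the PePr peak for an overlap gave 50.8% on separate peaks and 2.73% of genes. Leaving out peaks with a replicate 2 peak within 500 bp gave 76.2% and 1.80%. With the higher-scoring 50% of replicate 1 peaks, 329 peaks were left, 37.4% on separate peaks, with 0.922% of genes. A limit of 200 bp or 1000 bp in place of 500 bp gave 30.9% or 74.7% of centres near a gene end and 2.03% or 3.41% of genes. Reading the replicate lists as counted from 1, chosen after seeing the data, gave 889 peaks. The remaining values moved by less than their interval or, for the number of peaks, by 1.5 times or less. The median width was 680 bp with the p-value limit and stayed at 510 bp in the other choices of peaks.

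No paired analysis was possible because the values come from no test and each group has 1 library. Leaving out a replicate was not run, since the choice of peaks needs both replicate lists. Motif alternatives were not run. Depth per library is unknown, so the lists were compared as deposited.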

Other observations

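Symbols that share their letters before a number gave further gene groups of 10 or more genes, and 5 groups had 4 or more genes with a PePr peak shared with replicate 1 only near an end. This naming was made after the values were seen, and no test was run. The homeobox symbols HB had 5 of 37 genes (13.5%), HB32, HB33, HB6, HB-1 and HB5, which belong to several homeobox classes. XTH genes, whose enzymes remodel xyloglucan in the cell wall, had 4 of 30 (13.3%): XTH32, XTH7, XTH25 and XTH6. RABA genes, small GTPases of vesicle traffic, had 4 of 21 (19.0%): RABA2b, RABA6b, RABA1g and RABA1f. WRKY genes had 4 of 67 (5.97%), and CYP symbols, mostly cytochromes P450, had 4 of 229 (1.75%). The share over all protein-coding genes was 2.53%, and 312 of the 10374 with a symbol had such a peak.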
